A study of Mus musculus with 2 samples.

Results

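Translation initiation and elongation factors are the proteins that bring the ribosome to an mRNA, place it on the start codon and move it along the message. The genes described here were chosen by name alone, as the gene symbols that begin with Eif or Eef and are not marked as pseudogenes, which gave 66 of the 27998 genes in the count matrix. Of these, 62 had at least 1 UMI in the cells kept (a UMI, or unique molecular identifier, stands for 1 captured transcript), 60 reached 50 UMIs over both libraries and 41 were found in at least 10% of cells. Eef1a2, Eif4e1b, Eif4ebp3 and Eif2c5 had 0 UMIs in both libraries, where 3 counts, the limit a count of 0 allows, would be 0.257 and 0.379 CPM. Eif2c5 carries an Argonaute-related symbol and is no translation factor, and Eif5a2 and Eif2ak4 stayed under 50 UMIs. The 66 genes lie on 18 of the 19 autosomes and on both sex chromosomes.

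In the usual route of initiation, eIF2 carries the initiator tRNA to the small ribosomal subunit, eIF1 and eIF1A hold that subunit open to scan for the start codon, and the large eIF3 complex keeps the assembly together. The cap-binding complex eIF4F recruits the mRNA, eIF5 and eIF5B complete subunit joining, and eEF1A and eEF2 then deliver tRNAs and translocate the ribosome. Leukemia cells are known for a high demand on protein synthesis, and signaling through mTOR acts on several of these proteins, among them the 4E-binding proteins that hold back eIF4E.

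The data are single-cell 3′ RNA-seq of mouse leukemias driven by MLL-AF9, a fusion oncogene delivered by retrovirus with a YFP reporter to lineage-depleted marrow that then went into lethally irradiated recipients. All donor mice carried Kat2a Flox/Flox alleles and all received pIpC, an inducer of the Mx1-Cre recombinase, with marrow taken 4 to 6 weeks later. Donors without the transgene (Mx1-Cre -/-) gave the Kat2a-WT group and donors with it (Mx1-Cre +/-) the Kat2a-KO group. Marrow from terminal leukemias was thawed, pooled by genotype (5 leukemias for WT and 4 for KO), sorted for live YFP-positive single cells and made into 1 library per genotype. Since there was 1 library per genotype and the leukemias in a pool carry no label, no difference between the libraries could be tested. Levels are given as counts per 1000000 UMIs (CPM), summed over cells, with exact 95% Poisson intervals, and ratios as the log2 of the KO-labelled library over the WT-labelled library with exact 95% binomial intervals. These intervals cover counting error only, not the spread between leukemias.

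Cells with under 500 genes were removed, which left 3866 cells labelled WT with a median of 2588.5 UMIs and 3545 cells labelled KO with a median of 1884 UMIs. Because of this gap in depth, ratios were also computed after each cell had been thinned to 1000 UMIs, which left out 66 and 194 cells. The labels do not say which barcode ending belongs to which genotype, and the assignment follows the study's published code. Kat2a itself went against that assignment, at 12.2 CPM (10.2 to 14.3) in the WT-labelled library and 95.8 CPM (89.1 to 103) in the KO-labelled library, although a 3′ assay reads the last exon, which the excised allele keeps. The libraries are therefore named by their labels throughout. Of the cell type markers, granulocyte genes took 79031 and 76685 CPM and primary granule progenitor genes 14724 and 13103 CPM. Marker lists of other blood cell types stood higher in the KO-labelled library. Erythroid genes (6) were at 167 and 440.4 CPM and megakaryocyte genes (4) at 20.8 and 135 CPM. T or NK cell genes (5) were at 197 and 319 CPM, and B cell genes (5, with 2 and 1 of them at 0) at 54.3 and 79.0 CPM. The T or NK list holds Nkg7, a leading gene of the primary granule progenitor-like cluster described below, so it does not mark only cells outside the leukemia. The part of these lists in the results was not tested. The libraries shared 28 barcodes, 19 of them among the cells kept.

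Together the factors took 1.56% of all UMIs in the WT-labelled library and 1.63% in the KO-labelled library, or a log2 ratio of 0.06 (0.05 to 0.07) that became 0.10 (0.08 to 0.11) after thinning. The typical cell held 35 factor UMIs from 16 factors in the WT-labelled library and 27 factor UMIs from 13 factors in the KO-labelled library. Over the 60 factors with 50 or more UMIs the median log2 ratio was 0.02, against -0.01 over the 9307 genes that passed the same minimum. By any amount, 28 factors were lower in the KO-labelled library and 32 higher, where 51.2% of all genes were lower. A log2 ratio of 0.32 or more in size was taken as the mark of a difference, and past it 10 factors were lower against 24% of all genes and 6 were higher against 18.4%. Past 1.5-fold, 7 factors were lower against 11.8% and 2 higher against 6.79%. Among the factors found in at least 10% of cells, 4 of 41 were past the mark lower and 4 higher, against 12.2% and 17.5% of the 2737 genes found as widely. The shares past the mark and past 1.5-fold lie near or under the background and are no result about the factors as a group. The small difference in the sum turned on which cells were counted, since it was -0.0015 in cells outside 2 clusters described below, one granulocyte-like and the other led by stefin A genes.

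**Figure D1:**
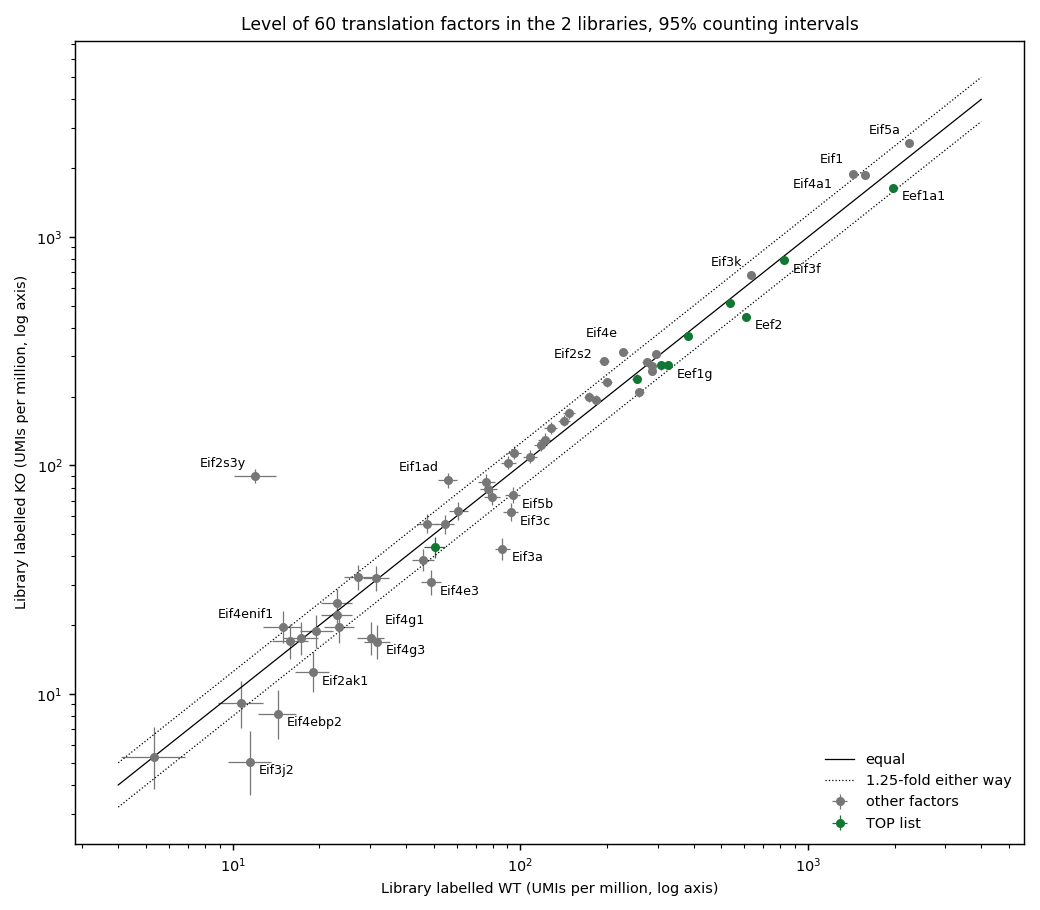
Level of each of the 60 factors with 50 or more UMIs in the WT-labelled library (horizontal) against the KO-labelled library (vertical), both in CPM on log axes, with bars for the 95% counting intervals, a solid line of equal level and dotted lines at a log2 ratio of 0.32 in either direction. Most points lie inside the dotted lines, the 9 genes of the TOP list (green) lie on or below the line of equal level at this depth, with Eef2 past the dotted line (Eif3e and Eif3h were above 0 after thinning), and Eif2s3y stands apart at 12.00 and 90.02 CPM.

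A few factors made up most of the signal. Each transcript is counted once at its 3′ end, so the levels of different genes can be set side by side without a correction for length. Eif5a, which helps the ribosome through sequences where it stalls, was the most abundant at 2249 CPM (2222 to 2277) and 2586 CPM (2551 to 2622). Eef1a1, which delivers aminoacyl-tRNAs, followed at 1971 CPM (1945 to 1996) in the WT-labelled library but was at 1646 CPM (1618 to 1674), below Eif1 and Eif4a1, in the KO-labelled library. The least abundant of the 60 were Eif2ak3, an eIF2 kinase at 5.31 CPM, in the WT-labelled library and Eif3j2, an eIF3 subunit at 5.05 CPM, in the KO-labelled library.

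The genes of eIF1 and eIF1A, which select the start codon, were grouped with Eif1ad, which has a related domain. Their summed log2 ratio was 0.36 (0.33 to 0.39), and Eif1 held 16775 of their 21268 UMIs in the WT-labelled library. All 5 were above 0 at own depth, where 48.8% of all genes were, but not after thinning. Eif1, which keeps the scanning subunit open until the start codon is met, was at 1438 CPM (1416 to 1459) in the WT-labelled library and 1884 CPM (1854 to 1915) in the KO-labelled library, or a log2 ratio of 0.39 (0.36 to 0.42), 0.40 after thinning and 0.298 in cells matched on total UMIs. Its paralog Eif1b was scarcer, at 147 and 169 CPM, with a log2 ratio of 0.20 (0.10 to 0.30). Eif1ad, a protein with an eIF1A-like domain, was at 55.96 CPM (51.7 to 60.4) and 86.1 CPM (79.8 to 92.8), which gave the largest ratio of the group at 0.62 (0.46 to 0.78). Its UMIs were uneven over cells, since 1 cell held up to 22 and 23 of them and the 10 richest cells held 11.6% and 10.4% of the total. The 2 copies of eIF1A differed in how they stood up to thinning. Eif1ax went from 0.20 (0.09 to 0.31) to -0.04 (-0.23 to 0.15), while Eif1a was near 0 in both, at 0.02 and 0.01.

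Among the subunits of eIF2, which carries the initiator tRNA, Eif2s2 (the beta subunit) was at 195 CPM (187 to 203) in the WT-labelled library and 286 CPM (275 to 298) in the KO-labelled library. Its log2 ratio was 0.55 (0.47 to 0.64) and 0.62 after thinning, and it was found in 35.02% and 36.4% of cells despite the lower depth of the second library. Eif2s1, the alpha subunit that stress kinases phosphorylate, was at 141 and 157 CPM with a ratio of 0.15 (0.05 to 0.26). The gamma subunit is encoded on both sex chromosomes. Its Y copy Eif2s3y (chrY:1010543-1028847, GRCm38) was at 12.00 CPM (10.1 to 14.2) and 90.02 CPM (83.5 to 96.9), or a log2 ratio of 2.91 (2.64 to 3.18) and the largest among the factors. The X copy Eif2s3x was at 45.8 CPM (42.04 to 49.9) and 38.6 CPM (34.4 to 43.2), and its ratio changed sign on thinning, from -0.25 (-0.45 to -0.04) to 0.12 (-0.27 to 0.51). Summed, the X and Y copies were at 57.8 and 129 CPM.

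The Y copy depends on whether a leukemia came from male cells, so it was read beside Xist, the transcript that silences an X chromosome in female cells. An Eif2s3y UMI was found in 94 of 3866 cells labelled WT, or 2.43% (1.97 to 2.97%, Clopper-Pearson), and in 511 of 3545 cells labelled KO, or 14.4% (13.3 to 15.6%). Xist went the other way, with a UMI in 42.2% (40.6 to 43.7%) and 12.98% (11.9 to 14.1%) of cells. At 1000 UMIs per cell the shares were 1.11% and 7.22% for Eif2s3y and 21.5% and 7.91% for Xist. Both transcripts were seen together in 9 cells labelled WT and 12 cells labelled KO. Xist was found in 9.57% of Eif2s3y-positive cells against 42.97% of the other cells in the WT-labelled library, and in 2.35% against 14.8% in the KO-labelled library. Genotype and the sex of the leukemias cannot be told apart for this gene. In cells without an Eif2s3y UMI the summed log2 ratio of the factors was 0.02, and that of the factors outside the TOP list was 0.14. Fewer cells had an Eif2s3y UMI at lower depth, so a cell without one can still be male. This subset therefore does not separate the sexes.

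The eIF2B complex, which reloads eIF2 with GTP, was even between the libraries, at 159 CPM (152 to 166) and 165 CPM (156 to 174) with 0 of its 5 subunits past the 0.32 mark. Ratios of the subunits ran from -0.25 for Eif2b5 to 0.25 for Eif2b3, and the depth behind each was low, from 185 to 711 UMIs in the WT-labelled library. The kinases that phosphorylate eIF2 under stress were rarer still. Eif2ak1, the heme-regulated kinase, was at 18.9 CPM (16.5 to 21.6) and 12.5 CPM (10.2 to 15.2) with a log2 ratio of -0.60 (-0.96 to -0.25), while Eif2ak2 (PKR) at -0.24 (-0.68 to 0.19) and Eif2ak3 (PERK) at -0.0028 (-0.60 to 0.59) had intervals that held 0. Eif2ak4 (GCN2) had 31 and 8 UMIs, too few for the minimum set here.

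Within eIF3, the scaffold of the small subunit, the summed level was nearly level at 3676 CPM (3641 to 3711) and 3566 CPM (3525 to 3608), but the subunits diverged. Eif3a, the largest subunit (chr19:60761117-60790658, GRCm38), was at 86.6 CPM (81.4 to 92.1) in the WT-labelled library and 43.2 CPM (38.7 to 48.01) in the KO-labelled library, or a log2 ratio of -1.005 (-1.19 to -0.83). Its ratio after thinning was -1.08 (-1.39 to -0.77), and it was found in 19.8% and 7.73% of cells. Eif3c, which joins Eif3a in the core, was at 92.6 CPM (87.2 to 98.3) and 62.6 CPM (57.2 to 68.4), or a ratio of -0.56 (-0.72 to -0.41) that shrank to -0.3196 in matched cells, just inside the mark. Eif3i was at 259 CPM (249 to 268) and 209 CPM (199 to 219), or a ratio of -0.31 (-0.40 to -0.22) just inside the mark. It was past the mark after thinning (-0.37) and well inside it in cells matched on total UMIs (-0.15). Eif3j2 had the lowest ratio of all factors at -1.19 (-1.73 to -0.67), on 134 and 40 UMIs. The last 300 bases of its transcript match those of its near-identical copy Eif3j1, so the counting could have split reads between the 2, and Eif3j1 itself was at -0.13 (-0.28 to 0.02). The other subunits lay within 0.20 of 0 on the log2 scale. The most abundant of them, Eif3f, was at 824 CPM (808 to 841) and 793 CPM (773 to 813), and Eif3k at 634 CPM (619.9 to 649) and 684 CPM (665 to 702). Eif3h, Eif3e, Eif3m, Eif3l, Eif3b and Eif3d ranged from -0.06 for Eif3e to 0.07 for Eif3l, and Eif3g was at 0.20 (0.10 to 0.30). The sum of the complex was -0.04 at own depth, -0.01 after thinning and 0.05 in cells matched on total UMIs, so its direction depended on the handling of depth.

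Members of the eIF4F complex and its helpers differed in direction. Eif4e, which binds the cap, was at 228 CPM (219 to 237) in the WT-labelled library and 314 CPM (302 to 327) in the KO-labelled library, or a log2 ratio of 0.46 (0.38 to 0.54). Eif4a1, the main helicase that unwinds the leader, was at 1583 CPM (1561 to 1606) and 1861 CPM (1831 to 1891), or a ratio of 0.23 (0.20 to 0.26), and its paralog Eif4a2 at 76.2 and 84.8 CPM had a ratio of 0.16 (0.01 to 0.30). The helicase partner Eif4h was at 0.07 (-0.02 to 0.17) and its other partner Eif4b at -0.20 (-0.39 to -0.01).

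Of the scaffolds, Eif4g1, the principal scaffold, was at 30.2 CPM (27.1 to 33.5) and 17.5 CPM (14.8 to 20.7), or a ratio of -0.78 (-1.08 to -0.49) at own depth and -0.41 (-0.89 to 0.06) after thinning. Eif4g3 was at 31.7 CPM (28.6 to 35.1) and 16.9 CPM (14.2 to 20.04), or a ratio of -0.91 (-1.20 to -0.62). Eif4g2, a scaffold without the eIF4E binding site, was more abundant than either, at 286 and 273 CPM, and was at -0.07 (-0.14 to 0.01), or 0.097 in cells matched on total UMIs. The cap-binding paralogs of Eif4e differed too, with Eif4e2 at 0.18 (0.05 to 0.32) and Eif4e3 at -0.66 (-0.88 to -0.44) on 48.9 and 30.9 CPM. Of the proteins that bind Eif4e, Eif4ebp1 was at 275 CPM (265 to 284) and 285 CPM (273 to 297) with a ratio of 0.05 (-0.03 to 0.13). Eif4ebp2 was at 14.3 CPM (12.2 to 16.7) and 8.21 CPM (6.33 to 10.5) with a ratio of -0.80 (-1.24 to -0.38), and Eif4enif1, a shuttle that takes eIF4E to the nucleus, was at 0.40 (0.08 to 0.72), or 0.19 in cells with 1000 or more genes.

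**Figure D2:**
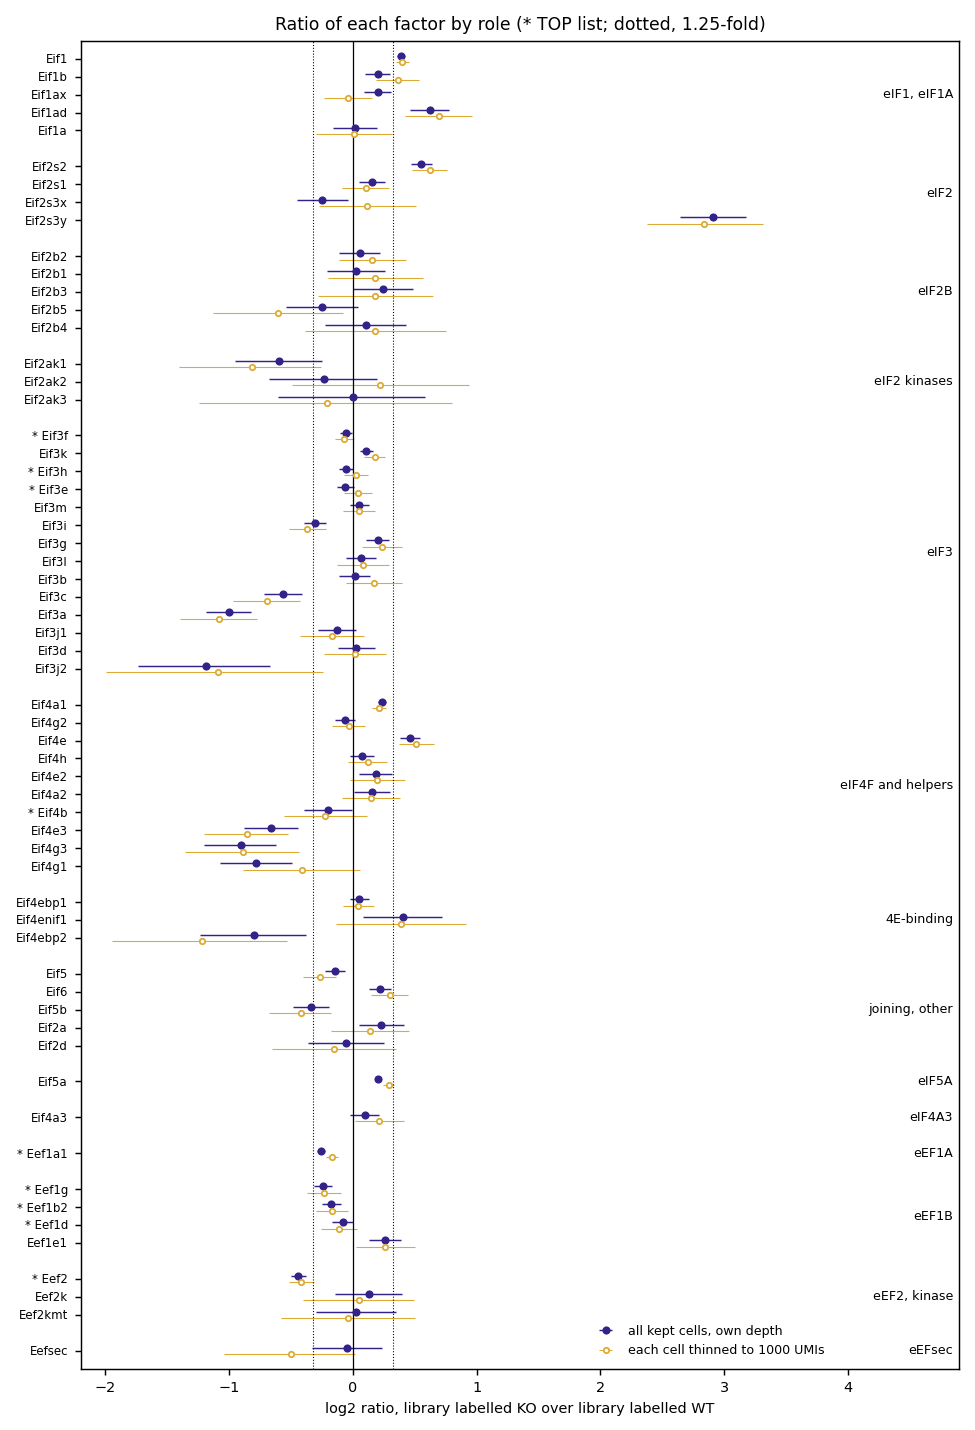
Log2 ratio of the KO-labelled library over the WT-labelled library for 60 factors grouped by role, with 95% counting intervals, at own depth (filled points) and after each cell was thinned to 1000 UMIs (open points); dotted lines mark a log2 ratio of 0.32 in either direction and a star marks the TOP list. Both estimates lie on the same side for the largest ratios, such as -1.005 and -1.08 for Eif3a and 0.55 and 0.62 for Eif2s2, and differ in sign for 6 factors, Eif2s3x, Eif1ax, Eif2ak2, Eif3e, Eif3h and Eef2kmt.

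Late steps of initiation showed smaller differences. Eif5, which triggers GTP hydrolysis on eIF2, was at 287 CPM (277 to 297) and 259.8 CPM (249 to 271), or a log2 ratio of -0.14 (-0.22 to -0.06). Eif5b, which joins the large subunit, was at 94.1 CPM (88.6 to 99.8) and 74.4 CPM (68.5 to 80.6), or a ratio of -0.34 (-0.49 to -0.19) that ranged from -0.42 to -0.08 over the other ways of processing. Eif6, which keeps the large subunit apart from the small one, was higher at 0.22 (0.13 to 0.31), on 199 and 231 CPM. Eif2a, an alternative carrier of the initiator tRNA that is not a subunit of eIF2, was at 0.23 (0.05 to 0.41), and Eif2d at -0.05 (-0.36 to 0.25). Eif5a had a ratio of 0.20 (0.17 to 0.23), and its paralog Eif5a2 had 2 UMIs in each library. Eif4a3, a helicase that belongs to the exon junction complex, was at 0.10 (-0.02 to 0.21).

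Summed, the Eef-named genes were lower in the KO-labelled library, with 0.363% and 0.306% of UMIs. Their summed log2 ratio was -0.24 (-0.27 to -0.22), against 0.14 (0.13 to 0.16) for the Eif-named genes. The sums weigh abundant genes most, and the median ratios were nearer each other, at -0.08 and 0.03. Of the Eef-named genes 6 of 9 were lower and of the Eif-named genes 22 of 51, where 51.2% of all genes were. The sums were -0.20 and 0.17 after thinning, and -0.085 and 0.25 in cells matched on total UMIs. Eef2, the translocase (chr10:81176631-81182498, GRCm38), was at 608 CPM (594 to 622) in the WT-labelled library and 448 CPM (434 to 463) in the KO-labelled library, or a ratio of -0.44 (-0.50 to -0.38) and the only one past the 0.32 mark among 9 Eef-named genes with 50 or more UMIs. Its ratio was -0.27, inside the mark, once cells were matched on total UMIs. Eef1a1 had a ratio of -0.26 (-0.29 to -0.23), and of -0.35, past the mark, outside the granulocyte-like and stefin A-led clusters. The exchange factors that recharge eEF1A followed, with Eef1g at 325 CPM (315 to 335) and 275 CPM (263 to 287), Eef1b2 at 309 CPM (299 to 319) and 274 CPM (263 to 286), and Eef1d at 254 CPM (245 to 263) and 239.9 CPM (229 to 251). Their ratios were -0.24 (-0.32 to -0.16), -0.17 (-0.25 to -0.10) and -0.08 (-0.17 to 0.0012). Eef1e1, a protein of the aminoacyl-tRNA synthetase complex that shares the name, was higher at 0.26 (0.13 to 0.39). The kinase that inhibits Eef2, Eef2k, was at 0.13 (-0.14 to 0.40), the methyltransferase Eef2kmt at 0.03 (-0.30 to 0.35) and the selenocysteine factor Eefsec at -0.05 (-0.33 to 0.23).

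Many transcripts for ribosomal proteins and elongation factors belong to the TOP class, whose leaders open with a C and a run of pyrimidines and whose translation responds to mTOR. Of the factors, 9 were listed as TOP genes (Eef1a1, Eef1b2, Eef1d, Eef1g, Eef2, Eif3e, Eif3f, Eif3h and Eif4b). This list holds only Eif- and Eef-named genes, so its values do not stand for the TOP class as a whole. All 9 listed factors were lower in the KO-labelled library at own depth, where 51.2% of all genes were lower, but Eif3e and Eif3h were above 0 after thinning and Eef1d, Eef1g, Eif3e and Eif3h above 0 in cells matched on total UMIs. Their median log2 ratio was -0.17. Their sum was -0.19 (-0.21 to -0.17), or -0.14 (-0.17 to -0.11) after thinning, and that of the other factors was 0.18 (0.16 to 0.19). The median of the other factors was nearer 0, at 0.05, with 32 of 51 above 0, where 48.8% of all genes were. Only Eef2 among the 9 was past the 0.32 mark. After thinning, Eif3e and Eif3h were at 0.04 and 0.03. In cells matched on total UMIs the sum of the list was -0.07, the value nearest 0 among the alternatives. The cytosolic ribosomal protein genes took 15.2% and 12.5% of UMIs, with 79 of 82 lower and a median ratio of -0.30. With those genes left out of the total, the TOP list was at -0.24 and the other factors at 0.13.

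The starts of the TOP genes are shown because the class is defined by its first bases. RefSeq promoters (GRCm38.p6) were at hand for 52 of the 66 factors and for 5 of the 9 TOP genes, and 25 bases are given for each, 10 before the annotated start and 15 from it. Capitals mark an unbroken run of at least 5 C or T letters that opens with C and begins within 5 bases of that start, on the strand of the gene.
Eef1a1 (chr9:78481710-78481734, minus strand): ctccgCCCTCTTCCCgagggtgggg
Eef1b2 (chr1:63176821-63176845, plus strand): ctgcagttccgccggaagtagccga
Eef2 (chr10:81176621-81176645, plus strand): aaggccgggcgttgacgtcagcggt
Eif3f (chr7:108934405-108934429, plus strand): tctaggCTCTCTCTCTTTCTCggca
Eif4b (chr15:102073763-102073787, plus strand): tcccgtcggacgccgcgccaccccc
Such a run was present in 2 of the 5, Eef1a1 and Eif3f, in 25.4% of the 67 promoters of all factors, since some have more than 1, and in 18.3% of the 32851 promoters in the table. It began before the annotated start in both, at position -5 for Eef1a1 and -4 for Eif3f. From that start the Eef1a1 letters open with T, so its capitals do not show a leader that opens with C. No run in the other 3 says only that these letters are not in this window at the annotated start.

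To follow the factors over cell states, cells of both libraries were grouped into 12 clusters without using any Eif or Eef gene. The clusters were named by their leading genes, and only 2 were given the name of a cell type. Cluster 5 was called granulocyte-like (11 of 12 markers raised, 4 among its 10 leading genes). Cluster 7 was called primary granule progenitor-like (5 of 5 raised, 3 leading). Such markers were not confined to these 2. Cluster 10 also had 5 of 5 primary granule progenitor markers raised, Elane among its leading genes. In cluster 12, 8 of 12 granulocyte markers were raised, and in cluster 6, 8 of 11 monocyte or macrophage markers. Differences between the libraries in how many cells fell into a cluster were not read. The summed level of the factors was highest in cluster 1, led by Mcpt8 and Fabp5, at 21354 CPM (21144 to 21566) in the WT-labelled library and 22962 CPM (22708 to 23218) in the KO-labelled library. It was lowest in granulocyte-like cluster 5, at 8220.3 CPM (8053 to 8390.0) and 9467 CPM (9160.3 to 9780.4). That is a range of 2.60-fold in the WT-labelled library and 2.43-fold in the KO-labelled library, and 2.52-fold and 2.34-fold with each cell at 1000 UMIs. Cells of cluster 1 also had the highest median UMIs, 4863 and 3863, against 1807 and 1488 in cluster 5. Cluster 9, led by Sox4 and Cd34, was next with 19144 and 18706 CPM, and clusters 2 and 11, led by mitotic and S phase genes, were toward the low end at 12077 and 12373 CPM and 12687 and 12798 CPM. Cycling genes did not go with 1 level, since cluster 10, with 10 mitotic markers raised, was at 16909 and 16755 CPM, and 9 S phase markers were raised in cluster 1. The order of the 12 clusters was nearly the same in both libraries (Spearman's rho of 0.99 over 12 clusters that were formed jointly).

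**Figure D3:**
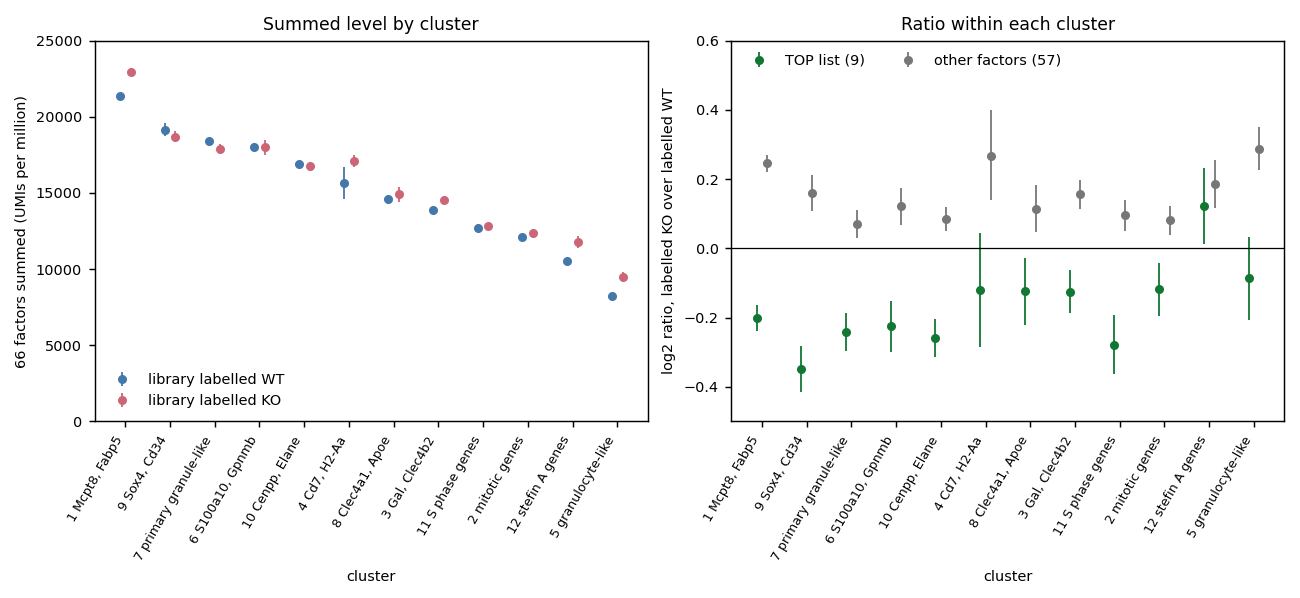
Left, summed level of the 66 factors in each cluster in CPM, by library, ordered from the highest to the lowest mean; right, log2 ratio of the KO-labelled library over the WT-labelled library within each cluster for the 9 TOP genes and the 57 other factors. Bars are 95% counting intervals. The level runs from 21354 and 22962 in cluster 1 to 8220.3 and 9467 in cluster 5, and the 2 gene sets separate in every cluster but cluster 12.

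Individual factors differed in how far they followed this order. Of the 41 widely found factors, 20 in the WT-labelled library and 26 in the KO-labelled library were highest in cluster 1, and 31 and 22 were lowest in cluster 5. The same counts were not made over all genes found as widely. Whether this order is particular to the factors was therefore not tested. Among those of the 41 with a UMI in every cluster, the steepest was Eef1g, at 723 CPM in cluster 1 and 71.4 CPM in cluster 5 of the WT-labelled library, a 10.1-fold range. Eif4a1 was at 2657 and 602 CPM in the same clusters. Eef1a1 was highest in cluster 9, at 3428 and 2562 CPM, and lowest in cluster 5, at 721 and 655 CPM. Among the flattest were Eif5, with ranges of 1.91-fold and 2.004-fold, and Eif1, with ranges of 1.99-fold and 1.87-fold. Eif1 did not follow the common order and was highest in cluster 4, led by Cd7 and MHC class II genes, at 2281 and 2857 CPM, although cluster 4 held 37 cells labelled WT. Eif4ebp1 was also an exception, since it was highest in cluster 8, led by Clec4a1 and Apoe, at 457 CPM (409 to 509) and 523 CPM (435 to 625), and lowest in cluster 1 in the KO-labelled library at 183 CPM (161 to 208). Eif4a2 was likewise highest in cluster 4 in both libraries.

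**Figure D4:**
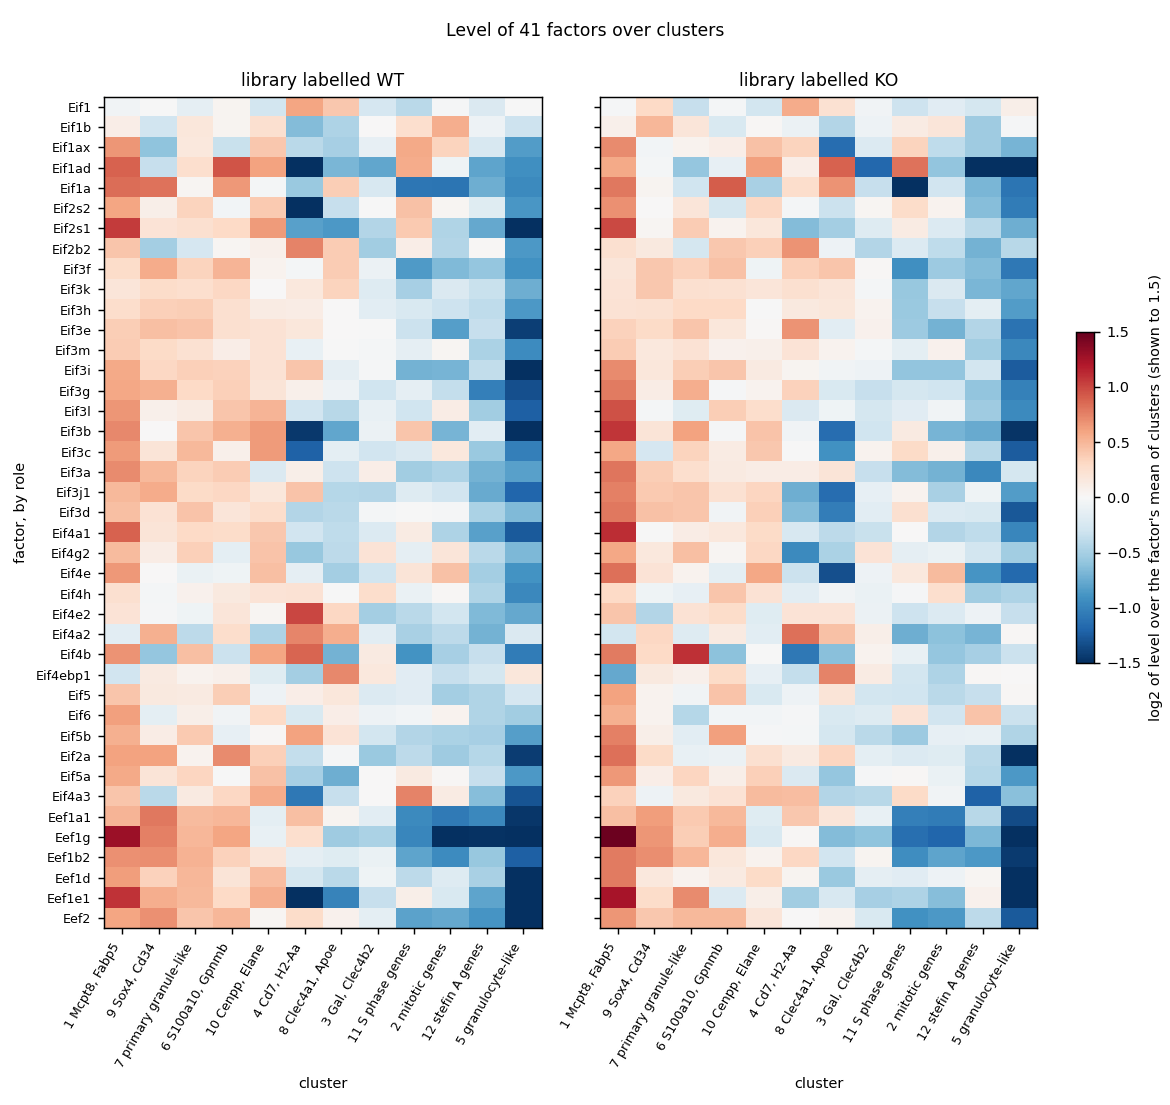
Level of the 41 widely found factors (rows, by role) in the 12 clusters (columns, in the order of the summed level), as log2 of the level over the mean of the clusters, for each library. The colours run from high in cluster 1 to low in cluster 5 for many rows, while 14 of the 41, among them Eif1, Eif4a2, Eif2b2, Eif1ad and Eif4ebp1, are highest outside cluster 1 in both libraries. Genes other than the factors were not counted in this way.

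Within clusters, the sums of the TOP list and of the other factors mostly kept their direction, while many single factors did not. The sum of all factors was lower in the KO-labelled library in 4 clusters and higher in 8. Eif4h, Eif4a2 and Eif2b2 were each lower in 6 clusters and higher in 6. The TOP list was lower in the KO-labelled library in 11 of 12 clusters, from -0.35 in cluster 9 to -0.09 in cluster 5 with intervals that held 0 in clusters 4 and 5, and higher in stefin A-led cluster 12 at 0.12 (0.01 to 0.23). The sum of the other factors, which weighs abundant genes most, was higher in 12 of 12 clusters, from 0.07 in cluster 7 to 0.29 in cluster 5. Of the 41 widely found factors, Eif3a and Eif3i were lower in all 12 clusters (4.68% of the 2737 genes were) and Eif1, Eif2s2 and Eif5a were higher in all 12 (6.76% of genes were), so the number of such factors is near the background. For Eif3a the ratio was -0.93 (-1.28 to -0.58) in cluster 1 and -1.13 (-1.80 to -0.46) in cluster 9, and for Eif2s2 it was 0.63 (0.45 to 0.81) and 0.45 (0.05 to 0.86). Eef2 was at -0.39 (-0.51 to -0.27) in cluster 1 and -0.74 (-0.95 to -0.54) in cluster 9, but at 0.16 (-0.26 to 0.57) in cluster 5 and 0.03 (-0.32 to 0.38) in cluster 12, whose intervals held 0. Eef1a1 was lower in 11 of 12 clusters and higher in cluster 12 at 0.30 (0.11 to 0.48). With the 2 libraries given the same cluster shares, the TOP list was at -0.20 and the other factors at 0.16.

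The study asked how loss of Kat2a changes the variation of gene expression between cells, so the coefficient of variation (CV, SD over mean of counts per 10000) was computed for the 41 widely found factors. At own depth the CV was higher in the KO-labelled library for 38 of the 41, with a median log2 ratio of 0.26, where 87.7% of the 2737 genes were higher with a median of 0.21. With every cell at 1000 UMIs it was higher for 24 of the 41, with a median of 0.03, against 55.6% of genes and a median of 0.02. The largest differences after thinning were for Eif3a, with a CV of 3.84 in the WT-labelled library and 5.59 in the KO-labelled library (log2 ratio 0.54), Eif3c (0.43) and Eef1d (0.34). The CV was lower for Eif1ad (-0.37) and Eif2s2 (-0.32). The CV ran opposite to the level. It was higher in the KO-labelled library for 14 of the 15 factors whose thinned level was lower there. It was also higher for 10 of the 26 whose level was higher. Spearman's rho between the 2 ratios over the 41 factors, which share cells and counts, was -0.73. For the TOP list, 8 of 9 had the higher CV. Neither the split by level nor the rho was computed over the 2737 genes. This CV keeps counting noise, which weighs more at a lower mean, so a lower level by itself raises it. These counts and the rho therefore cannot show a change in variation apart from the level. The same holds for factors with a large level ratio, such as Eif3a and Eif2s2.

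**Figure D5:**
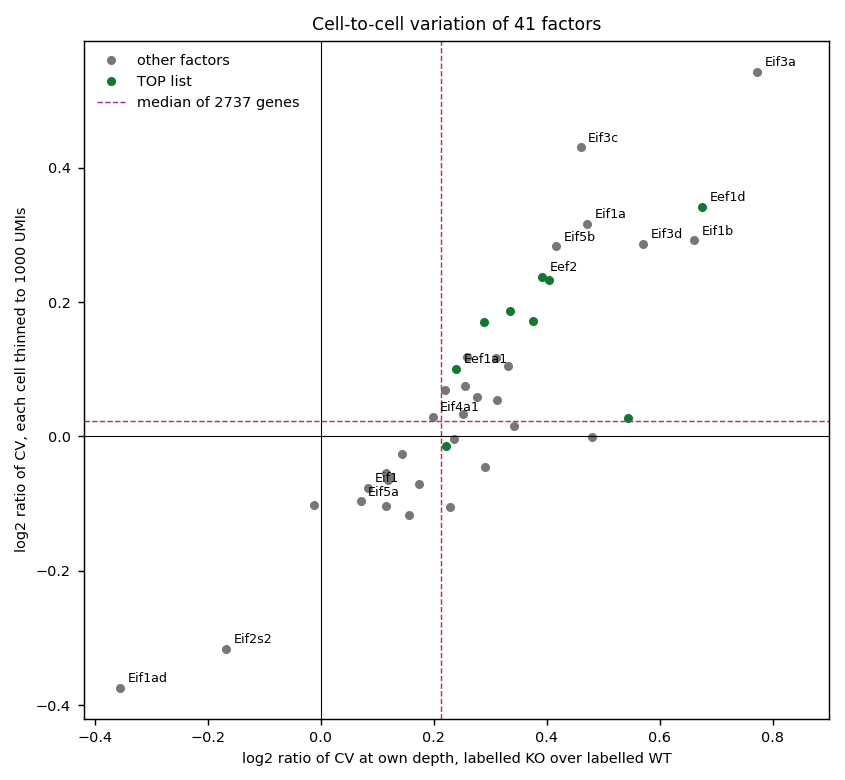
Log2 ratio of the CV, KO-labelled over WT-labelled library, for 41 factors at own depth (horizontal) and with each cell thinned to 1000 UMIs (vertical); dashed lines mark the medians of 2737 genes. The points lie mainly right of 0 at own depth, where 38 of 41 are higher, and scatter about 0 after thinning, where 24 of 41 are.

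Burst frequency is, in a model of promoter switching, the rate at which a promoter switches on in units of mRNA lifetime. It was estimated from the mean and the variance left after counting noise, over all cells of a library. That variance also holds differences between cell states, so the value is not a direct measure of promoter switching. The median log2 ratio of this estimate was -0.54 over the 41 factors at 1000 UMIs per cell, with 29 lower in the KO-labelled library, against -0.58 over 2720 genes, of which 74.5% were lower. How the factors stood against other genes turned on the setting, since at own depth the median was -0.78 with 38 of 41 lower, against -0.60 and 79.3% of genes, and without the 10 highest cells of each gene it was -0.35 with 23 of 32 lower, against -0.59 and 76.7% of genes. Among the 7 most abundant factors the ratios at 1000 UMIs per cell were 0.02 for Eif5a, -0.25 for Eef1a1, -0.45 for Eif1, -0.43 for Eif4a1, -1.60 for Eif3f, -0.022 for Eif3k and -0.69 for Eef2.

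Of 49 other genes of the translation pathway, 44 had 50 or more UMIs, of which 10 (22.7%) were past the mark lower and 7 (15.9%) past it higher, near the 24% and 18.4% of all genes. Their median log2 ratio was -0.06. Pabpc1, the poly(A)-binding protein that contacts eIF4G, was at 777 CPM (761 to 793) and 1112 CPM (1089 to 1135), or a ratio of 0.52 (0.47 to 0.56). Pdcd4, which inhibits the eIF4A helicase, was at 76.4 CPM (71.5 to 81.6) and 50.5 CPM (45.7 to 55.7), or a ratio of -0.60 (-0.77 to -0.43). Dhx29, a helicase that aids scanning, was at -1.51 (-2.17 to -0.89) on 113 and 27 UMIs, and Tpt1 was at -0.17 (-0.21 to -0.12). Atf4, the transcription factor induced when eIF2 is phosphorylated, was at 83.4 and 67.5 CPM with a ratio of -0.30 (-0.46 to -0.15), and Ddit3, which acts with it in the stress response, was at -0.04 (-0.36 to 0.27).

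Counts of some factors are less certain than their intervals show. The last 300 bases of the transcript matched another counted gene for Eif3j2 (Eif3j1), Eif4a3 (Gm5580 and Gm8994), Eif1 (Emd) and Eef1d (Naprt), at 97% identity or more over at least 98 bases. Whether the counting used strand is not given in the sources used here. Eef1a1 matched 11 other genes, 0 of which are in the matrix.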

How the data were processed

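The deposited matrix held UMI counts per gene and cell, not normalized, which the authors made with Cell Ranger (version 1.3.1 and build mm10 per the submitters' processing notes, while the study's methods name another version). Barcodes ending in 1 were taken as Kat2a-KO from the study's published code. Cells with under 500 genes were left out (4.99% labelled WT and 16.4% labelled KO), and 11669427 and 7920256 UMIs remained. Doublets were kept, since Scrublet marked 0.0602% of 8309 cells with its own threshold and was taken not to have worked. Counts were summed per library and given per 1000000 UMIs. Cells were thinned without replacement (fixed seed) and clustered by k-means on 20 principal components of 795 variable genes, with no Eif or Eef gene among them. CV and moment-based burst frequency used genes in 10% or more of cells. Steps were tested on simulated data. Full values were given for widely found subunits and stand-alone factors, the 5 largest ratios in each direction, paralog pairs and TOP genes. Members and lists were chosen with earlier results of these data known. Analyses used Python 3.11.15, numpy 2.4.6 and scipy 1.17.1. No per-sample column was left unused. Other gene-level positions came from GENCODE M21 (GRCm38).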

Additional observations from a re-analysis of the deposited data

Results flagged for a closer look

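The 203 cells labelled WT and 695 cells labelled KO with under 500 genes entered only the sums and ratios over all deposited cells, and 3 values in them stood above the WT-labelled library beyond counting error. All translation factors together were at 7808 CPM (7445 to 8183) in the WT-labelled library and 10137 CPM (9897 to 10382) in the KO-labelled library, both under the 15645 and 16340 CPM of the cells kept. The TOP list was at 1909 CPM (1732 to 2100 CPM) and 2383 CPM (2267 to 2503), a log2 ratio of 0.32 where the cells kept had -0.19. Eif2s3y had 0 UMIs in the WT-labelled library, where 3 counts would be 13.4 CPM, and 56 UMIs in the KO-labelled library, or 84.2 CPM (63.6 to 109).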

How the results depend on the processing

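No paired analysis was possible because each genotype had only 1 library, and for the same reason no replicate could be left out. Of 659 values of single factors under alternatives, 565 stayed within the counting interval of the value in the text, 94 moved outside it, and none of the factors past a log2 ratio of 0.32 in size changed direction under the alternatives run. In size, 5 of them fell inside it in at least 1 alternative (Eif5b, Eif3c, Eef2, Eif4enif1 and Eif1, each in cells matched on total UMIs), and 19 others passed it in at least 1. The summed log2 ratio of all factors (0.06) was 0.033 with all deposited cells, 0.12 in cells with 1000 or more genes, 0.10 after thinning, 0.18 in cells matched on total UMIs, 0.077 when centred on the median of all genes, 0.046 with the same cluster shares in both libraries, 0.038 without Eif5a, and, in alternatives chosen after seeing the data, 0.017 outside ribosomal protein genes, 0.023 in cells without an Eif2s3y UMI, 0.10 without Eef1a1 and -0.0015 outside the granulocyte-like and stefin A-led clusters. The median ratio was 0.11 in cells matched on total UMIs, where 14 factors were past 0.32 higher, against 10 in cells with 1000 or more genes, and 2 were past 1.5-fold. The eIF3 sum turned to 0.052 in matched cells. The median CV ratio was 0.26 at own depth. The range over cell states was 2.48-fold and 2.29-fold with 8 clusters, 2.85-fold and 2.71-fold with 16 clusters, and, chosen after seeing the data, 2.52-fold and 2.34-fold after thinning, in the libraries labelled WT and KO. The log2 ratio of Kat2a was 2.98, and 3.54 after thinning. The causes of these shifts were not tested. Depth limits the scarce factors most.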
